A study of Homo sapiens with 2 samples.

Results

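The interferon response genes described here are 35 genes chosen by name: sensors of foreign nucleic acid, transcription factors of the interferon pathway and genes that interferon is known to induce. DNA methylation at their promoters and gene bodies was compared between 1 library of SKNO-1 and 1 library of SKNO-siAE (SKNO1-siAE in the labels), both made by methylC-capture sequencing (MCC-Seq), in which bisulfite-converted DNA is captured with probes and sequenced. SKNO-1 is an AML cell line with the t(8;21) translocation and the RUNX1-RUNX1T1 (AML1-ETO) fusion. SKNO-siAE was derived from SKNO-1 by infection with a pRRLcPPT.hPGK lentivirus that encodes siAGF1, an RNA directed at the fusion site of the AML1-ETO mRNA. Both were grown in RPMI 1640 with fetal calf serum, and SKNO-siAE thus differs from SKNO-1 by the whole lentiviral vector as well as by the silencing. Whether SKNO-siAE is 1 clone is not stated in the sources used here, and the silencing acts on mRNA, so it could not be checked in methylation data. A site is 1 CpG cytosine on 1 strand, and its level is the fraction of its reads that were methylated, from 0 to 1. A promoter covered 1500 bp upstream to 500 bp downstream of every protein-coding transcript start of a gene, and its level was the mean over its shared sites, those that both libraries covered with 5 or more reads. Of the 35 members, 33 had at least 5 shared sites, as did 18200 of 19833 protein-coding genes. The exceptions were IRF7, with 0 shared sites, and IFI44, with 3.

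Type I interferon binds its receptor at the cell surface, and the JAK kinases of the receptor then act on STAT2, which works with IRF9 in a complex called ISGF3. This complex binds the interferon-stimulated response element (ISRE) upstream of its target genes, whose products detect viral RNA or DNA, block translation or entry, or feed back on the pathway. The same genes are known to respond to DNA demethylating agents through double-stranded RNA from endogenous retroviruses.

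The ISRE was searched as GAAA, any 2 bases, GAAA on both strands at the canonical (Ensembl_canonical) start of each gene. It was present in the 200 bp before the start in 18 of 35 members (51.4%), against 431 of 19553 protein-coding genes (2.20%). In the wider window from 1500 bp upstream to 500 bp downstream, 24 members (68.6%) and 23.2% of all genes held it. A gamma-activated site, searched as TTC, any 3 bases, GAA, lay in the 200 bp before the start of 9 members (25.7%) and in 4.28% of all genes. These members were picked as interferon genes, and a match is a description and not evidence of binding. Member promoters held fewer CpGs than others, with a median of 41.0 CpGs in the wider window against 89.0 over all genes.

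The following 6 stretches, from the GRCh37 (hg19) assembly and written 5′ to 3′ on the strand of the gene, are shown because these members both differed in promoter methylation by at least 0.2 and carry the ISRE in the 200 bp before the canonical start. Capitals mark the ISRE. The IFIT1 stretch (chr10:91152180-91152302) ends before the first annotated exon and the ISG15 stretch (chr1:948677-948876) overlaps none, whereas the elements of IFIT5 (chr10:91174270-91174299), RSAD2 (chr2:7017753-7017782), BST2 (chr19:17516547-17516576) and DDX60 (chr4:169239937-169239966) fall in an exon of another transcript or of a neighbouring gene and are shown as 30 bases.
RSAD2: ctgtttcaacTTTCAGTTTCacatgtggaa
IFIT1: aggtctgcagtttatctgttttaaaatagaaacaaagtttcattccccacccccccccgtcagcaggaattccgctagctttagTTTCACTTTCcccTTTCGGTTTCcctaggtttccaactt
IFIT5: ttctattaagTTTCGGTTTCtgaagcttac
DDX60: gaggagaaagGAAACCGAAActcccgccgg
BST2: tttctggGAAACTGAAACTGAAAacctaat
ISG15: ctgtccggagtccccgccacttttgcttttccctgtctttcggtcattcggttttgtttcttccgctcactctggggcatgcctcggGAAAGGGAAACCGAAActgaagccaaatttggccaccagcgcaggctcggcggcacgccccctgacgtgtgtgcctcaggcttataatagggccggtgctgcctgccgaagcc
The printed elements of RSAD2 and BST2 hold no CpG, whereas IFIT1, IFIT5, DDX60 and ISG15 each have a CpG in a printed element.

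The libraries were of similar depth, with 83620068 site reads over 4713346 sites in SKNO-1 against 82164216 over 4694016 sites in SKNO-siAE. They shared 3168726 sites, with a median depth of 16.0 and 15.0 reads. The sites in common had a mean level of 0.587 for SKNO-1 and 0.655 for SKNO-siAE, so a lower level in SKNO-1 was the common direction in these data. There was 1 library per line, and every test below therefore compares 2 libraries and not the conditions. Intervals are 95% Wilson intervals of pooled reads, which carry no molecular identifiers, and they cover counting error only. A read that spans several CpGs is counted at each of them, so the intervals are too narrow even for that. Of 14 promoters of lineage genes, 3 differed by at least 0.2: the myeloid gene ELANE (0.824 in SKNO-1 against 0.141 in SKNO-siAE), the progenitor gene KIT (0.205 and 0.606) and the epithelial gene KRT8 (0.462 and 0.834). The other 11 did not, among them CD34 (0.931 and 0.913), SPI1 (0.315 and 0.329), MPO (0 and 0.1303 over 5 sites) and CD33 (0.217 and 0.403). Over all promoters, 14.2% were lower and 2.85% higher by at least 0.2. ELANE rested on 11 shared sites with a median of 5 reads in SKNO-siAE. KIT had 5933 reads in SKNO-1 against 1377 in SKNO-siAE. Methylation does not name a cell type, and the part of such differences in the results below was not tested.

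Promoter levels of the members were lower in SKNO-1 by at least 0.2 in 8 of 33 and higher in 2 of 33, and 23 were in neither class. The same limits were passed by 14.2% of all 18200 promoters in the lower direction and by 2.85% in the higher direction. As shares of the members these counts were 24.2% and 6.06%, and no test of the list was made. The members with lower promoters were XAF1, RSAD2, OASL, IFI16, IRF5, IFIT1, IFIT5 and DDX60, and those with higher promoters were BST2 and ISG15. The median difference, SKNO-1 minus SKNO-siAE, was -0.0462 over the members and -0.0116 over all promoters. With the strands of a CpG merged these medians were -0.0214 and -0.0116, and with windows of 500 bp to each side -0.0751 and -0.00578. The difference was below 0 in 25 of the 33 members, and also in 11478 of all 18200 promoters.

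**Figure D1:**
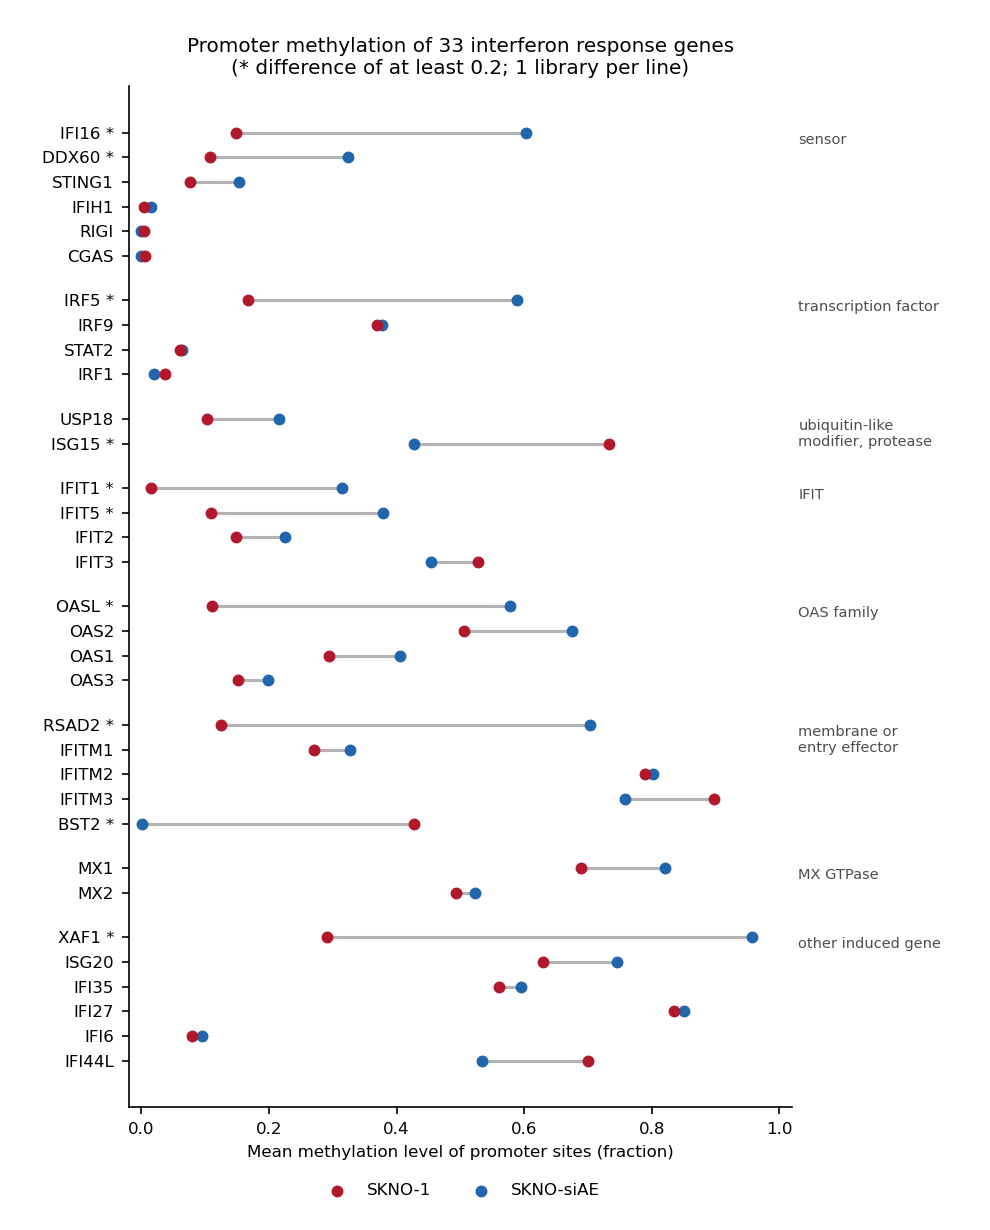
Promoter methylation level (fraction, horizontal axis) of the 33 members with at least 5 shared sites, grouped by role, with 1 point for SKNO-1 and 1 for SKNO-siAE and a grey line joining them. The longest lines belong to XAF1 (0.291 and 0.957) and RSAD2 (0.124 and 0.704), and BST2 is the widest pair in which SKNO-1 is the higher.

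**Figure D2:**
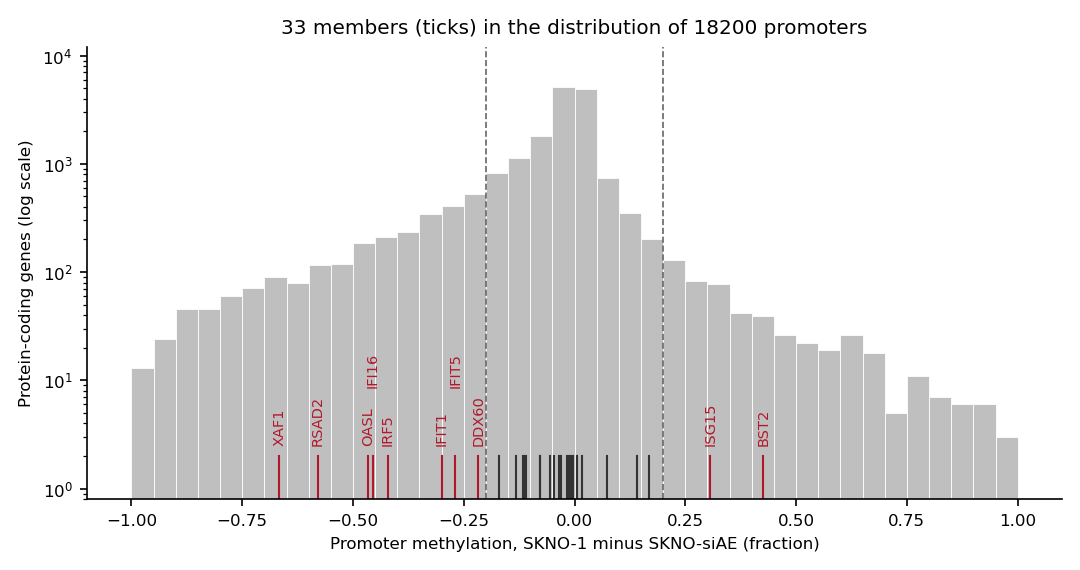
Histogram of the promoter difference, SKNO-1 minus SKNO-siAE (fraction), over 18200 protein-coding genes, with the number of genes on a log scale and the 33 members as ticks above the axis. Red ticks are the 10 members past the dashed limits at -0.2 and 0.2, and 8 of them lie on the left.

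Of the single sites in member promoters, 1699 were shared by the libraries. With Fisher's exact test (2-sided), p adjusted by Benjamini-Hochberg across the 3168726 shared sites, and the limit of 0.2 on the difference, 254 of these sites (14.9%) were lower and 113 (6.65%) were higher in SKNO-1. Over all shared sites, 11.7% were lower and 4.40% were higher. ISG15 alone held 50 of the 113 higher sites, and without it 63 of 1534 sites (4.11%) were higher and 253 (16.5%) lower, so that the higher share was then below that of all sites. No test of the list was made, and the sites of 1 promoter are not independent of each other.

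Among the sensors, the promoters of IFI16 and DDX60 were lower in SKNO-1, and those of the cytosolic RNA and DNA sensors RIGI, IFIH1 and CGAS were almost free of methylation in both libraries. IFI16, which binds double-stranded DNA in the nucleus and cytosol, had a promoter level of 0.148 in SKNO-1 against 0.604 in SKNO-siAE over 31 sites. Pooled, SKNO-1 had 156 methylated reads of 955 (0.163, interval 0.141 to 0.188), while SKNO-siAE had 554 of 937 (0.591, interval 0.560 to 0.622). The intervals did not overlap. Of its sites, 23 had a level of 0 in SKNO-1 against 6 in SKNO-siAE, and 17 were called lower. The difference of IFI16 lay upstream of its canonical start: over the 10 sites between 1500 and 500 bp upstream the level was 0.247 in SKNO-1 against 0.964 in SKNO-siAE, and over 5 sites of a window 9939 bp upstream it was 0 and 0.565, whereas in the first 200 bp after the start it was 0 and 0.0523. At its strongest site, in an intron of longer transcripts 215 bp upstream of the canonical start (chromosome 1, 158979482), SKNO-1 had 6 of 51 methylated reads and SKNO-siAE 60 of 60 (adjusted p = 4.22e-22, Fisher's exact test). At 158984322, in an intron 4625 bp downstream, the direction was the opposite, and 39 of 39 reads were methylated in SKNO-1 against 9 of 21 in SKNO-siAE (adjusted p = 5.37e-06, Fisher's exact test).

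DDX60, a helicase known to assist RIG-I-like receptors, had a promoter level of 0.107 in SKNO-1 against 0.324 in SKNO-siAE over 39 sites, the called difference nearest to the limit (-0.217). Pooled, 73 of 638 reads (0.114, interval 0.0920 to 0.142) and 335 of 912 reads (0.367, interval 0.337 to 0.399) were methylated. At the CpG inside the ISRE printed above, 0 of 27 reads were methylated in SKNO-1 against 29 of 63 in SKNO-siAE, summed over both strands. In the 200 bp before the start the level was 0.0611 and 0.412 over 19 sites. Of its 39 sites, 13 were called lower and 1 was called higher. The site of largest significance, 173 bp upstream at chromosome 4, 169240076, had 0 of 32 methylated reads in SKNO-1 against 15 of 19 in SKNO-siAE (adjusted p = 5.33e-08, Fisher's exact test). The 1 higher site, 98 bp downstream in an exon, had 16 of 16 methylated reads in SKNO-1 against 4 of 30 in SKNO-siAE (adjusted p = 1.87e-07, Fisher's exact test). When each library used its own sites, SKNO-1 on 45 and SKNO-siAE on 65, the difference of DDX60 was -0.0857 and no longer passed the limit.

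STING1, the adaptor that CGAS signals through, had promoter levels of 0.0755 in SKNO-1 against 0.153 in SKNO-siAE over 24 sites, with 3 called sites, all lower. IFIH1, which encodes the RNA sensor MDA5, was at 0.00321 in SKNO-1 against 0.0142 in SKNO-siAE over 81 sites. RIGI, the sensor of RNA with a 5′ triphosphate, was at 0.00477 and 0, with 0 of 799 methylated reads in SKNO-siAE. CGAS, which senses cytosolic DNA, was at 0.00556 and 0, with 2 of 674 and 0 of 467 methylated reads. With SKNO-siAE this close to 0, IFIH1, RIGI and CGAS left almost no room for a lower level in SKNO-1.

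Of the transcription factors, IRF5 was lower in SKNO-1, IRF1, IRF9 and STAT2 differed little, and IRF7 could not be compared. IRF5, a factor that drives inflammatory cytokines and interferon downstream of toll-like receptors, had a promoter level of 0.167 in SKNO-1 against 0.588 in SKNO-siAE over 70 sites. Pooled, 133 of 974 reads (0.137, interval 0.116 to 0.160) and 734 of 1077 reads (0.682, interval 0.653 to 0.709) were methylated. None of its sites was called higher and 31 were called lower, from 356 bp upstream to 2092 bp downstream of the canonical start. The windows of IRF5 merged into 1 stretch of 5216 bp because of 10 coding starts, and with the canonical start alone the difference was -0.281 in place of -0.421. The site with the smallest p, in an intron 1953 bp downstream of the canonical start at chromosome 7, 128579934, had 7 of 36 methylated reads in SKNO-1 against 37 of 37 in SKNO-siAE (adjusted p = 4.88e-12, Fisher's exact test).

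STAT2, a subunit of ISGF3, was at 0.0610 in SKNO-1 against 0.0637 in SKNO-siAE over 64 sites. IRF9, the DNA-binding subunit of ISGF3, was at 0.370 and 0.378 over 26 sites in a window it shares with the start of RNF31. IRF1, which activates interferon genes and is itself induced by interferon gamma, was at 0.0376 and 0.0200 over 104 sites.

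Around IRF7, the factor known as the master regulator of type I interferon, the SKNO-1 library held no site at all. In SKNO-siAE the IRF7 promoter had 98 sites with a mean level of 0.341, and 646 of 1398 pooled reads were methylated (0.462, interval 0.436 to 0.488). Its gene body there had 72 sites with a mean level of 0.924. The stretch without a SKNO-1 site ran from 577309 to 674459 on chromosome 11, 97151 bp that overlap 6 protein-coding genes, and SKNO-siAE had 1700 sites in it at a mean depth of 16.8 reads. In the stretch of equal length before it SKNO-1 had 1396 sites and SKNO-siAE 2034, and in that after it 539 and 1125. The deposited files list only sites with at least 5 reads, so a lower coverage in SKNO-1 could not be told from none, and why the sites are missing was not tested.

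**Figure D3:**
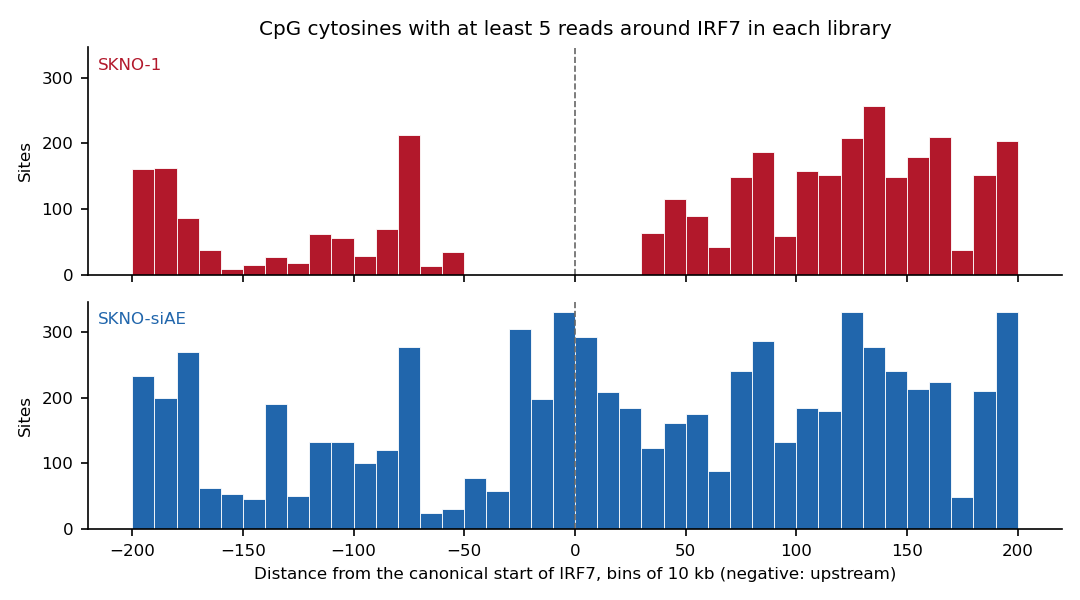
Number of CpG cytosines with at least 5 reads in bins of 10 kb around the canonical start of IRF7 (horizontal axis, kb, negative values upstream), SKNO-1 above and SKNO-siAE below. SKNO-1 has no site in the middle bins, where SKNO-siAE has sites in every bin.

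The modifier ISG15 and its protease USP18 were not alike. ISG15, a ubiquitin-like protein that is conjugated to other proteins after interferon, had a promoter level of 0.734 in SKNO-1 against 0.427 in SKNO-siAE over 165 sites, a difference of 0.306. Pooled, 1869 of 2735 reads (0.683, interval 0.666 to 0.701) and 998 of 2379 reads (0.420, interval 0.3998 to 0.439) were methylated. This difference lay at the starts of 2 longer ISG15 transcripts, 12352 bp upstream of the canonical start, a window that also holds the start of HES4. There, 146 sites had a level of 0.812 in SKNO-1 against 0.461 in SKNO-siAE. At the canonical start, 19 sites had levels of 0.135 and 0.169, and all 5 sites of the 200 bp that hold the ISRE were at 0 in both libraries, with 108 and 69 reads. With the canonical start alone the difference of ISG15 was thus -0.0347, the opposite direction.

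A called region of 38 sites lay in the distal ISG15 window, with a level of 0.775 in SKNO-1 against 0.0852 in SKNO-siAE. The part of it that lies before the first exon (chr1:936314-936517, GRCh37, + strand) is shown because the higher sites of ISG15 cluster there, a choice made after the values were seen. Capitals mark the 11 CpGs with a called site on at least 1 strand.
ISG15 distal region: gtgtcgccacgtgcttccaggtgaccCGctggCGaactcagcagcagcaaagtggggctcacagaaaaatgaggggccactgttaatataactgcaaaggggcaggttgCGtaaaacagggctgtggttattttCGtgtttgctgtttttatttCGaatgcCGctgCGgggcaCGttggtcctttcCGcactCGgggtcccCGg
The smallest p of ISG15 was shared by 3 sites at chromosome 1, 936528, 936532 and 936539, all in an exon, each with 27 of 27 methylated reads in SKNO-1 against 0 of 21 in SKNO-siAE (adjusted p = 4.97e-12, Fisher's exact test). The 1 site called lower lay 456 bp downstream of the canonical start, with 22 of 37 and 29 of 29 methylated reads (adjusted p = 5.95e-04, Fisher's exact test).

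USP18, the protease that removes ISG15 and also dampens receptor signalling, was at 0.102 in SKNO-1 against 0.215 in SKNO-siAE over 75 sites, with 9 sites called lower and 0 higher. The CpGs inside its ISREs 110 and 91 bp upstream had 0 of 29 and 0 of 58 methylated reads in SKNO-1 against 7 of 65 and 2 of 79 in SKNO-siAE.

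The IFIT genes, which encode proteins that bind foreign RNA and hold back its translation, lie side by side on chromosome 10, and IFIT1 and IFIT5 were lower in SKNO-1 whereas IFIT2 and IFIT3 were not past the limit. IFIT1, the founding member, had a promoter level of 0.0143 in SKNO-1 against 0.314 in SKNO-siAE over 15 sites. Pooled, 21 of 516 reads (0.0407, interval 0.0268 to 0.0614) and 268 of 606 reads (0.442, interval 0.403 to 0.482) were methylated. Between 500 and 200 bp upstream the levels were 0.0357 and 0.574 over 6 sites. In the 200 bp that hold the ISREs printed above they were 0 and 0.0998 over 7 sites, and the CpG cytosine inside the second IFIT1 element had 0 of 11 and 0 of 14 methylated reads. The IFIT1 difference was therefore larger upstream of the printed elements than in the 200 bp that hold them. The site with the smallest p, 494 bp upstream at chromosome 10, 91151886, had 18 of 116 methylated reads in SKNO-1 against 102 of 119 in SKNO-siAE (adjusted p = 4.50e-26, Fisher's exact test).

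IFIT5 had a promoter level of 0.109 in SKNO-1 against 0.378 in SKNO-siAE over 59 sites in windows that also hold the start of LIPA, with 174 of 1129 methylated reads (0.154, interval 0.134 to 0.176) and 421 of 1236 (0.341, interval 0.315 to 0.368). By pooled reads the IFIT5 difference was -0.187, short of the limit. Between 200 and 500 bp after the start the levels were 0 and 0.696 over 14 sites, and in the first 200 bp after the start they were 0 in both. Its CpG-holding elements 45 and 19 bp upstream were free of methylation in SKNO-siAE (0 of 64 and 0 of 41 reads) and nearly so in SKNO-1 (1 of 45 and 0 of 57). The strongest IFIT5 site, 441 bp upstream at chromosome 10, 91173884, had 0 of 49 methylated reads in SKNO-1 against 34 of 46 in SKNO-siAE (adjusted p = 8.87e-14, Fisher's exact test).

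IFIT2 was at 0.148 in SKNO-1 against 0.226 in SKNO-siAE over all its windows, and at 0.00124 and 0.00514 over the 24 sites of its canonical window. Its 7 sites about 17 kb upstream, at another start, were at 0.651 and 0.981. IFIT3 was at 0.527 and 0.455 over all its windows, and at 0 and 0.00694 over the 9 sites of its canonical window, so that the canonical starts of both genes were almost free of methylation in both libraries.

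In the oligoadenylate synthetase family, whose enzymes make the second messenger that activates RNase L, all 4 differences were below 0 and only that of OASL passed the limit. OASL, a member without synthetase activity that enhances RIG-I signalling, was at 0.111 in SKNO-1 against 0.578 in SKNO-siAE over 31 sites. Pooled, 50 of 603 reads (0.0829, interval 0.0635 to 0.108) and 411 of 657 reads (0.626, interval 0.588 to 0.662) were methylated. Of its 31 sites, 26 were at 0 in SKNO-1 against 4 in SKNO-siAE. The called OASL sites, 19 lower and 0 higher, ran from 45 bp upstream to 453 bp downstream of the start, while 4 sites more than 500 bp upstream were at 0.804 and 0.831. The OASL site with the smallest p, 256 bp downstream in an exon at chromosome 12, 121476793, had 0 of 50 methylated reads in SKNO-1 against 24 of 36 in SKNO-siAE (adjusted p = 8.58e-11, Fisher's exact test).

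OAS2, next to OAS1 and OAS3 on chromosome 12, was the member nearest to the limit without passing it, at 0.505 in SKNO-1 against 0.674 in SKNO-siAE over 42 sites (difference -0.169). Pooled, 389 of 740 reads (0.526, interval 0.490 to 0.561) and 508 of 797 reads (0.637, interval 0.603 to 0.670) were methylated. Its sites went both ways: 10 were called lower and 2 higher. At chromosome 12, 113416269, 55 bp upstream, OAS2 had 0 of 28 methylated reads in SKNO-1 against 22 of 28 in SKNO-siAE (adjusted p = 1.75e-08, Fisher's exact test), and at 113416443, 119 bp downstream, 16 of 17 and 5 of 17 (adjusted p = 0.00237, Fisher's exact test). OAS1 was at 0.295 and 0.405 over 13 sites, with 3 sites called lower, and by pooled reads its difference was -0.271, past the limit. OAS3 was at 0.152 and 0.198 over 29 sites, with 1 site called in each direction.

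Among the membrane or entry effectors, RSAD2 and BST2 stood at opposite ends. RSAD2, which encodes viperin, an enzyme that makes a chain-terminating nucleotide, had a promoter level of 0.124 in SKNO-1 against 0.704 in SKNO-siAE over 66 sites. Pooled, 126 of 1003 reads (0.126, interval 0.107 to 0.148) and 922 of 1213 reads (0.760, interval 0.735 to 0.783) were methylated. RSAD2 had 37 sites called lower and 0 higher, and 53 of its sites were at 0 in SKNO-1 against 13 in SKNO-siAE. With at least 10 reads per site, which left 28 sites, the difference of RSAD2 was -0.343 in place of -0.580. Both of its windows were lower: the canonical one was at 0.0756 and 0.737 over 15 sites, and that 12050 bp upstream, which holds the start of CMPK2, at 0.138 and 0.694 over 51 sites. In the 200 bp that hold the ISRE printed above, 6 RSAD2 sites had 0 methylated reads of 286 in SKNO-1 against a level of 0.710 in SKNO-siAE, and 7 of the 8 sites within 100 bp of the element were called lower. The RSAD2 site with the smallest p of all members, 185 bp upstream at chromosome 2, 7017723, had 0 of 64 methylated reads in SKNO-1 against 52 of 53 in SKNO-siAE (adjusted p = 1.55e-29, Fisher's exact test).

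BST2, which encodes tetherin, a membrane protein that holds budding virus at the cell surface, was the member with the largest higher value, at 0.427 in SKNO-1 against 0.000816 in SKNO-siAE over 35 sites. Pooled, 410 of 974 reads (0.421, interval 0.390 to 0.452) and 1 of 603 reads (0.00166, interval 2.93e-04 to 0.00933) were methylated. All but 1 of its sites were at 0 in SKNO-siAE, 18 sites were called higher and 0 lower. BST2 was not evenly methylated in SKNO-1: between 500 and 200 bp upstream the level was 0.659, in the 200 bp before the start 0.0545, and in the first 200 bp after the start 0.686. The low stretch holds the ISRE printed above. The window also holds the starts of BISPR and MVB12A. At chromosome 19, 17516330, in an exon 109 bp after the start, BST2 had 48 of 48 methylated reads in SKNO-1 against 0 of 16 in SKNO-siAE (adjusted p = 2.91e-13, Fisher's exact test).

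IFITM1, IFITM2 and IFITM3, neighbours on chromosome 11, encode proteins of the plasma and endosomal membranes that block viral entry. At their shared promoter sites SKNO-1 had fewer reads than SKNO-siAE: 1147 against 1791 for IFITM1, 876 against 1674 for IFITM2 and 496 against 841 for IFITM3. IFITM3 was near the limit, at 0.898 in SKNO-1 against 0.758 in SKNO-siAE over 45 sites (difference 0.140), with pooled intervals of 0.854 to 0.910 and 0.801 to 0.852. This value was made by a window 6677 bp upstream of the canonical start, where 22 sites were at 0.923 and 0.580, while the canonical window was at 0.874 and 0.927, a difference in the other direction. At 320930 on chromosome 11, 70 bp upstream of the canonical start, IFITM3 had 2 of 14 methylated reads in SKNO-1 against 44 of 47 in SKNO-siAE (adjusted p = 6.96e-07, Fisher's exact test), and at 330917, 10057 bp upstream, 14 of 14 and 2 of 9 (adjusted p = 0.00162, Fisher's exact test). The CpG inside the IFITM3 element 35 bp upstream was methylated in both libraries, with 18 of 20 and 62 of 68 reads. IFITM1 was at 0.271 and 0.327 over 62 sites and IFITM2 at 0.790 and 0.803 over 82 sites, and IFITM2 had 0 called sites.

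The MX genes encode GTPases that trap viral nucleocapsids and lie together on chromosome 21. MX1 was at 0.689 in SKNO-1 against 0.821 in SKNO-siAE over 157 sites, with 17 sites called lower and 3 higher, and at its canonical window 0.797 and 0.963. MX2 was at 0.493 and 0.523 over 57 sites, with 3 lower and 1 higher.

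Of the other induced genes, XAF1 had the largest difference of the 33 members by the mean over sites, whereas by pooled reads RSAD2 (-0.634) exceeded XAF1 (-0.588). With at least 10 reads per site, IRF5 (-0.592) exceeded XAF1 (-0.515). XAF1, an antagonist of the apoptosis inhibitor XIAP, was at 0.291 in SKNO-1 against 0.957 in SKNO-siAE over 42 sites. Pooled, 209 of 552 reads (0.379, interval 0.339 to 0.420) and 779 of 806 reads (0.967, interval 0.952 to 0.977) were methylated. The difference of XAF1 began near its start: 9 sites more than 500 bp upstream were at 0.945 and 1, those from 200 bp upstream to the start at 0.0120 and 0.972, and those in the first 200 bp after it at 0 and 0.966. All 28 called sites, 353 bp upstream to 331 bp downstream, were lower. At chromosome 17, 6659199, 166 bp upstream, XAF1 had 0 of 25 methylated reads in SKNO-1 against 40 of 42 in SKNO-siAE (adjusted p = 3.55e-14, Fisher's exact test).

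IFI44L and IFI44, adjacent genes on chromosome 1 of the same family, both had higher levels in SKNO-1. IFI44L was near the limit, at 0.7004 in SKNO-1 against 0.533 in SKNO-siAE over 26 sites (difference 0.167). Pooled, 666 of 967 reads (0.689, interval 0.659 to 0.717) and 640 of 1117 reads (0.573, interval 0.544 to 0.602) were methylated. IFI44L had 9 sites called higher and 3 lower: at 79085765, 368 bp upstream, 59 of 70 and 41 of 112 reads were methylated (adjusted p = 7.89e-09, Fisher's exact test), and at 79085183, 950 bp upstream, 33 of 51 and 57 of 57 (adjusted p = 5.14e-06, Fisher's exact test). IFI44 had too few sites to be counted. Its 3 sites gave 171 of 201 and 66 of 141 methylated reads, and 2 of them were called higher.

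The remaining members did not pass the limit. ISG20, a 3′ to 5′ exonuclease, was at 0.630 and 0.746 over 46 sites, a difference of -0.116 that became -0.271 with at least 10 reads per site, -0.263 with pooled reads and -0.307 with each library's own sites, all past the limit. IFI35, a protein that associates with NMI, was at 0.560 and 0.595, with 2 sites called lower and 2 higher. Of these IFI35 sites, that 190 bp upstream at 41158611 on chromosome 17 had 0 of 28 and 31 of 32 methylated reads (adjusted p = 4.64e-14, Fisher's exact test), and that 300 bp upstream at 41158501 had 9 of 9 and 6 of 15 (adjusted p = 0.0426, Fisher's exact test). IFI27, a mitochondrial protein, was methylated in both libraries at 0.835 and 0.851, its ISRE CpG included, with 150 of 174 and 100 of 110 methylated reads. IFI6, an inhibitor of apoptosis, was nearly unmethylated in both at 0.0788 and 0.0942, with 0 called sites.

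**Figure D4:**
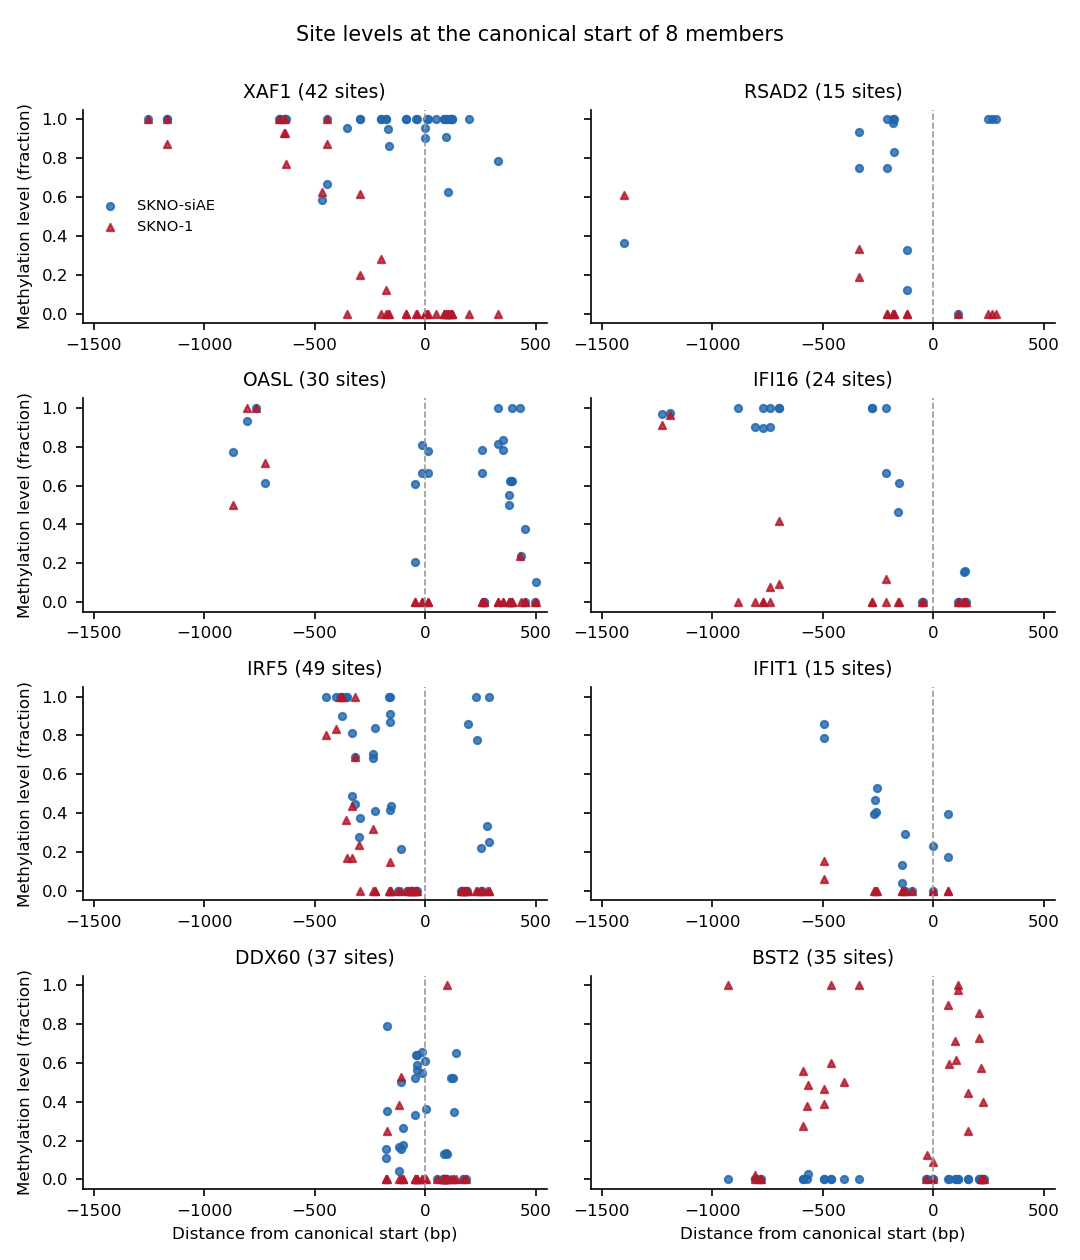
Methylation level (fraction, vertical axis) of each shared site against its distance from the canonical start (bp, horizontal axis) for 8 members, triangles for SKNO-1 and circles for SKNO-siAE. In XAF1, RSAD2 and OASL most SKNO-1 sites around the start lie at 0 while those of SKNO-siAE lie above, and in BST2 most SKNO-1 sites lie above while 34 of 35 SKNO-siAE sites lie at 0.

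Promoter levels were under 0.1 in both libraries in 6 members, namely CGAS, RIGI, IFIH1, STAT2, IRF1 and IFI6 (18.2% of 33), against 28.0% of all promoters. Another 8 were at or above 0.5 in both, as were 5942 of all 18200 promoters. Members with the ISRE in the 200 bp before the start numbered 17 among the 33 tested, of which 4 were lower and 2 higher. Of the 16 without it there, 4 were lower and 0 higher. The ISRE was searched at the canonical start, whereas these levels cover all coding starts of a gene. The higher level of ISG15 lay 12352 bp upstream of the canonical start, where its difference was -0.0347. Over all promoters, 14.2% were lower and 2.85% higher. The median difference was -0.0462 in members with the ISRE in those 200 bp and -0.0560 in those without it. XAF1, OASL, IFI16 and IRF5, 4 of the 5 members with the largest lower values, had no ISRE in those 200 bp, a cut made after the values were seen. IRF5 held an ISRE 725 bp upstream.

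As a measure of the spread within a library, the strands of the same CpGs were set against each other in 32 members with at least 5 CpGs measured on both strands. The + strand minus the - strand had a median size of 0.0253 in SKNO-1 against 0.0162 in SKNO-siAE and reached at most 0.127 and 0.135, so that 0 members passed 0.2 between strands. Of 15218 promoters of all genes, 2.17% and 2.01% did. Between the libraries, 12 members (37.5%) passed 0.2 on the + strand and 11 (34.4%) on the - strand, beside 17.5% and 17.9% of all promoters. They were not the same as the called members. OAS3 and ISG20, which were not called, passed on both strands, and OAS2 and IFITM3, also not called, on the + strand. The strands share DNA molecules and a library, so the comparison of strands is no replicate of the culture. On both strands, the 10 called members kept their direction, with IFIT5 at -0.0527 and -0.0750 over the 12 CpGs that both strands covered and DDX60 at -0.138 and -0.252. The calls were made from sites of these same strands, so the shared direction is no separate check of them.

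Runs of at least 5 sites that passed the Mann-Whitney U test across sites with Bonferroni adjustment overlapped the promoters of 2 members lower in SKNO-1 (RSAD2 and XAF1) and of 2 higher (ISG15 and IFITM3), against 7.14% and 1.77% of all promoters. The region at XAF1 spanned 777 bp and 31 sites, with levels of 0.0715 in SKNO-1 against 0.966 in SKNO-siAE. That of RSAD2 held 29 sites in 182 bp of the distal window, at 0.0138 and 0.946. That of IFITM3 held 43 sites in 480 bp, at 0.926 and 0.394, and reached beyond the upstream end of its window. Sites of 1 library are not replicates. With at least 10 reads per site, no member promoter overlapped a lower region.

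Gene bodies, the part of a gene outside its promoter windows, had at least 5 shared sites in 28 members, and the difference was below 0 in 24 of these, and also in 10825 of all 16901 gene bodies. Of the 28, 2 were lower by at least 0.2, beside 10.8% of all gene bodies, and 1 was higher, beside 2.49%. These counts are small, and no test of the list was made. The bodies lower in SKNO-1 were those of OAS3, at 0.416 and 0.790 over 12 sites, and of OAS1, at 0 and 0.247 over 5 sites, and the higher one was that of IFI44L, at 0.587 and 0.325 over 7 sites. Of the 8 members with lower promoters, 6 had a measured body, and its difference lay between -0.137 (IFIT1) and -0.00773 (IFIT5), all short of the limit. The median body difference was -0.0533 over the members and -0.0203 over all genes. With at least 10 reads per site it was -0.0212 over 23 members and -0.0182 over all genes, which were then close to each other.

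**Figure D5:**
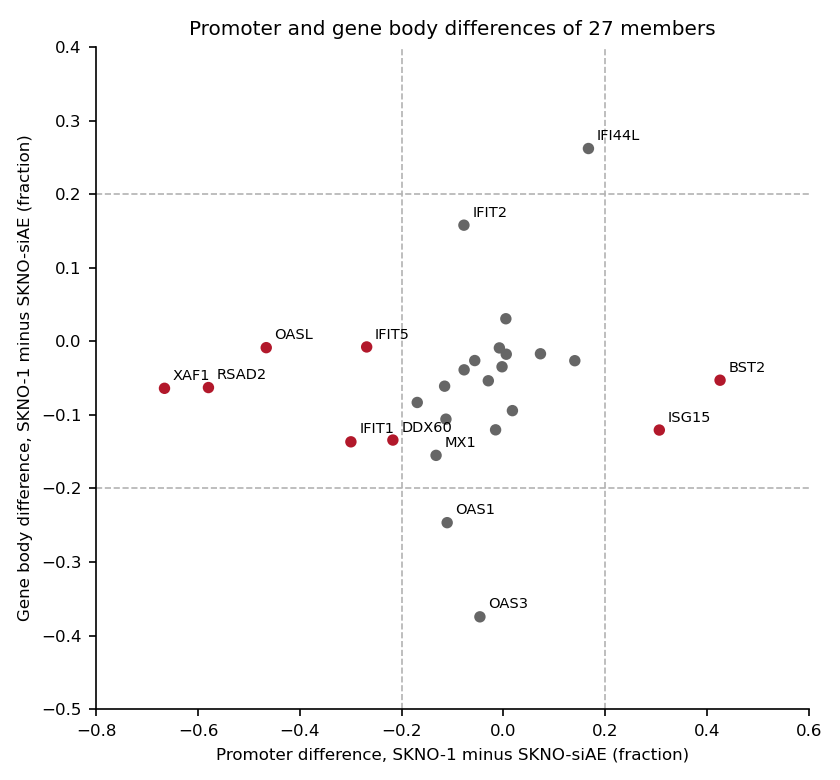
Promoter difference (horizontal axis) against gene body difference (vertical axis), SKNO-1 minus SKNO-siAE as fractions, for the 27 members with at least 5 sites in both, red where the promoter passed 0.2. The red points lie outside the vertical dashed lines and all lie between the horizontal ones, while OAS1, OAS3 and IFI44L pass only a horizontal one.

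The other genes of the pathway, 77 that are no members, had at least 5 shared promoter sites in 69 cases, of which 9 (13.0%) were lower and 4 (5.80%) higher, beside 14.2% and 2.85% of all promoters. By role, 1 of 6 receptors, 0 of 5 kinases, 1 of 5 adaptors, 1 of 6 transcription factors, 0 of 5 inhibitors, 0 of 2 ligands, 1 of 3 toll-like receptors and 5 of 37 effectors were lower. Higher were 1 of 6 receptors, 1 of 5 inhibitors, 1 of 2 ligands and 1 of 3 toll-like receptors. The largest lower values were those of PARP14 (0.00664 in SKNO-1 against 0.937 in SKNO-siAE over 45 sites), a mono-ADP-ribosyltransferase, and of CMPK2 (0.00833 and 0.673 over 48 sites), a mitochondrial nucleotide kinase whose start lies in the distal RSAD2 window. The windows of CMPK2 and RSAD2 thus overlap, and their differences are not independent. EPSTI1, an induced gene, was at 0.301 and 0.865. TICAM1, which encodes the adaptor TRIF, was at 0.0173 and 0.537, and TLR3, the double-stranded RNA receptor that uses it, at 0.0141 and 0.370. LAMP3, a lysosomal membrane protein, was at 0.513 and 0.946, and APOBEC3G, a cytidine deaminase that restricts retroviruses, at 0.309 and 0.647. In the other direction, TLR9, the receptor of CpG DNA, was at 0.556 and 0.211, PIAS1, a SUMO ligase that inhibits the pathway, at 0.435 and 0.0982, and IFNG, the type II interferon, at 0.758 and 0.451.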

How the data were processed

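MCC-Seq data of 1 SKNO-1 and 1 SKNO-siAE library were used, and the decitabine-treated cells of the study were not analysed here. Per the methods, adapters were removed, the reads were filtered for quality and length with a Perl script, and they were aligned to hg19 with BSMAP 2.73. The submitters' processing notes also name cutadapt 1.4.2. The authors deposited counts of methylated and unmethylated reads per CpG cytosine and strand, without normalization, at sites with at least 5 reads. All 6237778 positions were cytosines of a CpG in GRCh37.

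Levels were computed as methylated over all reads at the 3168726 sites shared by the libraries. The median depth of 16.0 and 15.0 reads makes single sites imprecise. Gene models came from GENCODE release 44 lifted to GRCh37. Promoters ran from 1500 bp upstream to 500 bp downstream of each protein-coding start. A promoter or gene body was called at a mean difference of at least 0.2 over at least 5 sites, without a test. Sites were tested with 2-sided Fisher's exact tests and Benjamini-Hochberg adjustment over all shared sites, with limits of 0.05 on the adjusted p and 0.2 on the difference. A region needed 5 or more neighbouring sites with gaps up to 300 bp, after smoothing over 5 sites, and passed a Mann-Whitney U test across sites with Bonferroni adjustment. Metilene, which the study used, was not run. The calling was tested on simulated data. All calls compare 2 libraries, and leaving out a replicate was not possible with 1 library per line.

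The members, the pathway list, the lineage genes and the ISRE search were chosen with earlier results of these data known. Full values were given for each called member and the 3 nearest below the limit, with their strongest sites, and for up to 10 pathway genes past the limit. Single sites of other members were named after their values were seen. Alternatives were at least 10 reads, pooled reads, merged strands, own sites, a narrower window, canonical starts, Bonferroni adjustment, other minimum differences and the whole gene span. Tools were python 3.11.15, numpy 2.4.6, pandas 2.3.3, scipy 1.17.1, numba 0.67.0, pysam 0.24.0, samtools 1.23.1 and matplotlib 3.10.9.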

Additional observations from a re-analysis of the deposited data

Results flagged for a closer look

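The IRF7 promoter had 98 sites in SKNO-siAE and none in SKNO-1, and it was singled out because it is measured in 1 library only and enters no comparison. The stretch around it without a SKNO-1 site held 1700 SKNO-siAE sites. Why SKNO-1 has no site there was not tested.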

How the results depend on the processing

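No paired analysis was possible because each line has 1 library, and for the same reason no replicate could be left out. Of 198 values of single members under 6 alternatives, 126 moved by less than their 95% counting margin, which is as narrow as the Wilson intervals it comes from. Of the 60 that belong to the 10 called members, 57 stayed past 0.2 in the same direction, and 7 of these members did so under every alternative. The exceptions were ISG15 with the canonical start only (-0.0347, reversed), IFIT5 with pooled reads (-0.187) and DDX60 with own sites (-0.0857). The members not called that passed 0.2 under an alternative were ISG20 and OAS1. The number of lower promoters stayed at 8 or 9 under the 6 alternatives. That of higher ones was 1 with the canonical start only and 2 under the other alternatives. The median member difference ranged from -0.0751 (window of 500 bp to each side) to -0.0214 (merged strands), and that of all promoters was -0.00578 and -0.0116 there. With Bonferroni adjustment 62 member sites were lower (3.65%, beside 2.28% of all sites) and 17 higher (1.001%, beside 0.669%), and with at least 10 reads 161 of 955 shared sites were lower (16.9%, beside 13.6%). Without ISG15, a setting chosen after seeing the data, 63 were higher. Among promoters that overlap a called region, a minimum difference of 0.4 left 1 higher, and at least 10 reads left 0 lower, with fewer sites per run. The median gene body difference ranged from -0.0630 (pooled reads) to -0.0212 (at least 10 reads, 23 members), beside -0.0246 and -0.0182 over all genes. At the shared median depths a single site cannot show a small difference, since Fisher's test needs large ones at 16.0 and 15.0 reads.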
